A study of Mus musculus with 6 samples.

Results

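Genes known for their response to glucocorticoid hormones or to metals were followed in striatal RNA of mice without PGC-1alpha. They are the 10 genes Fkbp5, Sgk1, Tsc22d3, Ddit4, Zbtb16, Klf9, Errfi1, Mt1, Mt2 and Cdkn1a. The genes were chosen by name, with earlier results of these data known. The array carries 26 probe sets assigned to 1 of these genes alone, out of 45101 probe sets in all. The knockout (KO) group held 3 mice null for Ppargc1a, the gene for the transcriptional coactivator PGC-1alpha (PGC-1a-/-), and the wild-type (WT) group held 3 littermates (PGC-1a+/+), all females aged 6 months bred from heterozygous founders. The labels name no treatment, Cre or transgene in either group, and the sources used here do not give the strain, the part of the gene that was altered, the time of day or the handling before tissue was taken. Each mouse gave 1 Affymetrix array, so n = 3 per genotype, and the mice are separate animals.

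Corticosterone, the glucocorticoid of mice, enters cells and binds the glucocorticoid receptor Nr3c1 or the mineralocorticoid receptor Nr3c2, which then act as transcription factors on DNA. Genes such as Fkbp5, Sgk1, Tsc22d3, Zbtb16 and Klf9 are transcribed more when the hormone rises, in neurons, glia and blood vessels. Metallothioneins are small cysteine-rich proteins that bind zinc and copper; Mt1 and Mt2 lie side by side on one chromosome and answer both to metals, through the factor MTF-1, and to glucocorticoids.

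The stretches before the transcription starts were searched for the elements these factors bind. The RefSeq promoter sequences of the GRCm38.p6 assembly held 18 starts for 9 of the 10 genes, and Zbtb16 had no entry among the promoter sequences used here. In the 250 bases before each start, both strands were searched for the full palindrome of the glucocorticoid response element (AGAACA, any 3 bases, then TGTTCT), for a single arm of it, AGAACA, and for the core of the metal response element, TGCACNC or TGCGCNC. The single arm is contained in the full palindrome. The following stretch of chr10:21993640-21993889 (plus strand), ahead of one of the 6 Sgk1 starts, is shown because it holds the full palindrome, with every arm on either strand in capitals.
Sgk1: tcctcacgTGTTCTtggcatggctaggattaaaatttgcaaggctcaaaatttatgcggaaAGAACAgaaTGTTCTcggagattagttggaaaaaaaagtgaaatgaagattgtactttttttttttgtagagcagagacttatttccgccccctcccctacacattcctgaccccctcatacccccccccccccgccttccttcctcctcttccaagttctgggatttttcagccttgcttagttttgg
The full palindrome occurred ahead of 3 of 32851 starts in the table (0.00913%), and Sgk1 was the only one of the 10 genes among them; the first base of the palindrome lay 189 bases before the start. A single arm was present ahead of 4 of the 18 starts, 3 of them Sgk1 starts and 1 a Tsc22d3 start, or 22.2%, against 16.1% of all starts. The stretches ahead of Mt1 (chr8:94178839-94179088, plus strand) and Mt2 (chr8:94172368-94172617, plus strand) are shown for the metal response element core, in capitals.
Mt1: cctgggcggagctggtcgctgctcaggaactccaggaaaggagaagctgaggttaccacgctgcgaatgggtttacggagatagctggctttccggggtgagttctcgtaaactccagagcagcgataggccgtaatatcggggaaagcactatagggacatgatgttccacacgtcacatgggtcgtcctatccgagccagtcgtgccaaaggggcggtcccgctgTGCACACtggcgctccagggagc
Mt2: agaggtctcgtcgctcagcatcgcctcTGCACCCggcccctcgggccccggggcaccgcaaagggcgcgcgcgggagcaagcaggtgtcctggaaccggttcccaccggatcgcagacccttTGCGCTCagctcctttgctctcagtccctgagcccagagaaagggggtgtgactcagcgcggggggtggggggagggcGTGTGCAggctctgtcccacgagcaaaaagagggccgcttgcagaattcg
Mt2 had 3 matches to the core, a number reached or passed by 1.26% of all starts, and Mt1 had 1, as did Ddit4; 3 of the 18 starts (16.7%) had at least 1, against 21.4% of all starts. These matches describe letters in a short window and were not measured as binding. Bases after the listed start or further upstream were not searched, so the counts are not those of a whole promoter.

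The labels and arrays were checked first. The brightest Ppargc1a probe set read 89.5, 87.9 and 68.4 in KO 1, 2 and 3, against 397, 305 and 370.3 in WT 1, 2 and 3, a difference of -1.93 (SE 0.14) on the log2 scale (limma adjusted p = 3.02e-05). Striatal neuron markers were bright in both groups: Penk, which encodes enkephalin, averaged 6733 in KO and 6296 in WT, and the D2 receptor gene Drd2 averaged 917 in KO and 788 in WT. Array medians lay between 43.1 and 47.3 over the 6 arrays. The label of KO 3 names cytoplasmic RNA, whereas those of the other mice name total RNA, so results without KO 3 are given. Signals are MAS5 intensities on an arbitrary linear scale, and levels are not compared between probe sets.

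No probe set of the 10 genes passed the threshold between KO and WT. Differences are KO minus WT on log2(signal + 16), tested with limma over all 27022 probe sets above the 40th percentile of mean signal and adjusted by Benjamini-Hochberg, with a call at an adjusted p under 0.05. Of the 26 probe sets 21 were bright enough to be tested, at least 1 for each gene, and 0 were called, where 0.470% of all probe sets tested were, 0.178% higher and 0.292% lower in KO. By unadjusted p under 0.05 in limma 9 of the 21 passed, all of them higher in KO and from Klf9, Zbtb16, Tsc22d3 and Fkbp5, while 9.17% of all tested probe sets passed at that level, 4.11% higher and 5.06% lower. The groups did not overlap in 6 of the 21, against 14.4% of all: KO lay above WT in 5, against 6.52%, and below WT in 1, against 7.88%. Probe sets of 1 gene were read in the same mice and are not independent, and Klf9 alone gave 4 of the 9 and 3 of the 5. By the brightest probe set of each gene, 4 of the 10 passed the unadjusted limma level and 3 did not overlap, all higher in KO. Of all 12323 named genes tested, 1199 passed that level and 1863 did not overlap, in either direction. By the same probe sets 8 of the 10 read higher in KO, with a median difference of 0.27, and the median over the 12323 genes was -0.0069. Without KO 3 the count of calls was again 0, with the smallest adjusted p at 0.349. Because the genes were chosen with earlier results of these data known, these shares are not independent evidence of a change in them.

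**Figure D1:**
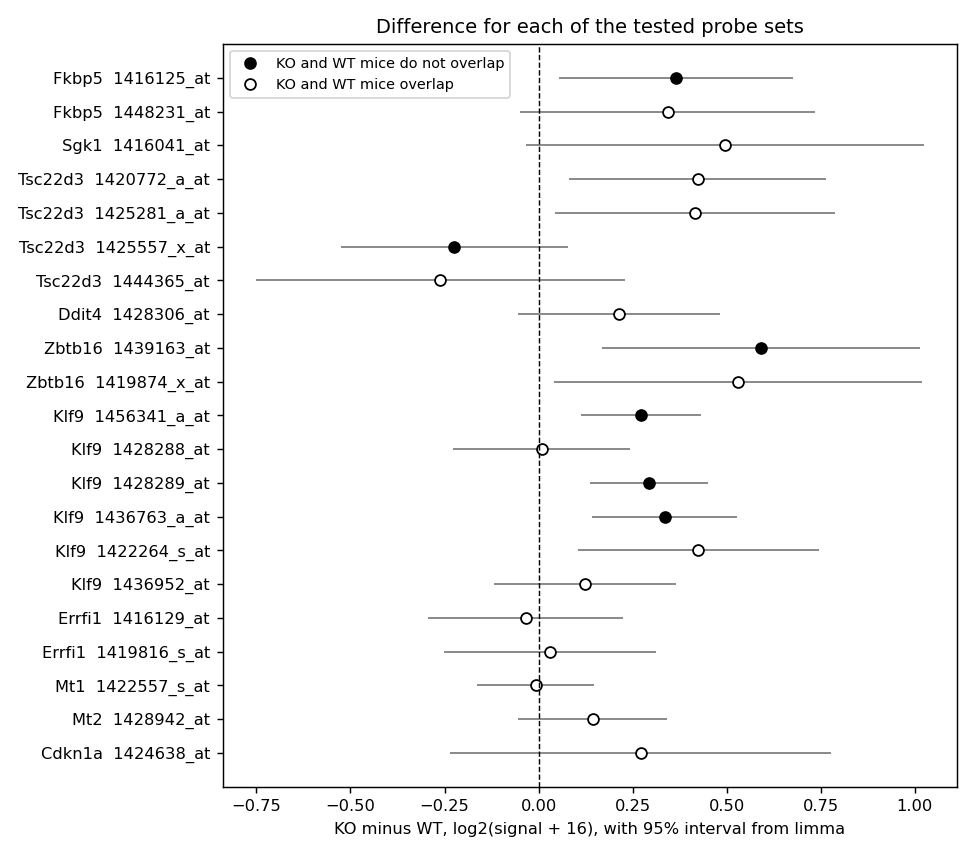
KO minus WT difference (horizontal axis, log2 scale) for each of the 21 tested probe sets of the 10 genes, with 95% intervals from limma. Filled points mark probe sets whose 3 KO and 3 WT mice do not overlap. The Zbtb16 and Fkbp5 points lie to the right of 0, 0.59 being the highest, while the Mt1 point at -0.01 and the Errfi1 points at -0.03 and 0.03 lie close to it.

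Klf9 had the smallest p among the tested probe sets of the 10 genes. It encodes a zinc finger transcription factor induced by glucocorticoids and thyroid hormone. Its brightest probe set read 7174, 6467 and 7198 in KO 1, 2 and 3, against 6141, 5807 and 5309 in WT 1, 2 and 3. All 3 KO mice lay above all 3 WT mice. The difference was 0.27 (SE 0.07, 95% interval 0.11 to 0.43), a signal 20.8% higher, with a limma adjusted p of 0.202. This probe set passed after quantile normalization (adjusted p = 0.0336), the lowest value among the alternatives tried, the highest being 0.538. A second Klf9 probe set, with the smallest unadjusted p among the 21 tested, read 2431, 2400 and 2584 in KO, against 2129, 2057 and 1861 in WT. Here too the groups did not overlap, and the difference was 0.29 (SE 0.07, adjusted p = 0.146). In the probe set at a mean of 678 in KO and 534 in WT the difference was 0.33, again without overlap (adjusted p = 0.193). The remaining tested Klf9 probe sets gave 0.42, 0.12 and 0.01, all with overlapping groups. Among these, the one closest to 0 was also bright, at 5007 ± 549 in KO and 4996 ± 742 in WT (SD, n = 3). A seventh was too dim to test, at 4.9 to 19.3 in KO and 14.0 to 20.4 in WT, a difference of -0.22. The 6 tested Klf9 probe sets ranged from 0.01 to 0.42, and of these the one at 0.12 was at 0.058 without KO 3. Those at 0.27, 0.29 and 0.33 were then at 0.25, 0.26 and 0.31 (limma adjusted p = 0.420, 0.349 and 0.403).

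Over the 6 mice, the genes whose pattern was closest to that of the second Klf9 probe set were Rinl, Hapln1, Nlgn3, Trappc8 and Vopp1. The root-mean-square difference of their mean-centred log2 signals from it ran from 0.038 to 0.040. Their differences of 0.23 to 0.32 follow from this choice, since the Klf9 probe set they were matched to was itself higher in KO.

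With all 6 mice, the difference of Zbtb16 was the largest among tested members. It encodes PLZF, a transcriptional repressor induced by glucocorticoids. Its brightest probe set read 101.7, 203.6 and 152.8 in KO 1, 2 and 3, against 94.7, 96.3 and 86.4 in WT 1, 2 and 3. KO 1 lay just above the WT mice and KO 2 was the highest of the 6. The difference was 0.59 (SE 0.19, 95% interval 0.17 to 1.01; limma adjusted p = 0.326), and without KO 3 it was 0.57. Without KO 1 it was 0.83 (adjusted p = 0.0916), below Sgk1 at 0.89, and without KO 2 it was 0.38, below Fkbp5 at 0.43 and a Klf9 probe set at 0.40. A dimmer probe set, marked by Affymetrix as liable to cross-hybridise, differed by 0.53 with overlapping groups, and by 0.34 without KO 2 or without WT 3. The remaining Zbtb16 probe set was too dim to test and read 34.6, 39.7 and 34.1 in KO, against 24.4, 30.4 and 3.5 in WT. Every KO mouse was above every WT mouse in it.

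Tsc22d3, which encodes GILZ, an anti-inflammatory leucine zipper protein made in several isoforms, gave probe sets of both directions. The brightest read 400.7, 686.2 and 508.7 in KO 1, 2 and 3, against 397.3, 421.6 and 336.2 in WT 1, 2 and 3. KO 2 and KO 3 were the highest mice, while KO 1 lay within the WT range. The difference was 0.42 (SE 0.16, adjusted p = 0.404), and it was 0.23 without KO 2 and 0.44 without KO 3. The next probe set gave 288.9, 535.4 and 472.6 in KO, against 307, 317.3 and 305.5 in WT. Here KO 1 was the lowest of all 6 mice, and KO 2 and KO 3 were the highest, for a difference of 0.42 (adjusted p = 0.468). Without KO 1 that probe set was called (0.67, limma adjusted p = 0.0258), and without KO 2 it was at 0.24 (adjusted p = 0.831). A dimmer probe set, liable to cross-hybridise, read 83.3, 76.2 and 84.2 in KO, against 97.3, 94.1 and 101.2 in WT. In it every KO mouse was below every WT mouse, with a difference of -0.22 (adjusted p = 0.690). The dimmest gave -0.26 with overlapping groups, and -0.40 without WT 2.

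Sgk1 encodes a kinase that raises ion channel and transporter activity at the cell surface and is rapidly induced by glucocorticoids. Its single probe set read 1155, 2572 and 2697 in KO 1, 2 and 3, against 1230, 1384 and 1666 in WT 1, 2 and 3. KO 2 and KO 3 were far above all WT mice, and KO 1 was the lowest of the 6. The difference was 0.50 with a wide interval, -0.03 to 1.02 (SE 0.24, limma adjusted p = 0.578). Without KO 1 it was 0.89 (adjusted p = 0.00621), and without KO 2 or KO 3 it was 0.32 or 0.28. Among the alternatives its adjusted p was lowest at 0.00621 and highest at 0.866, so the value for Sgk1 rested on which KO mice were included.

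Fkbp5 encodes a co-chaperone that lowers the hormone affinity of the glucocorticoid receptor and closes a feedback loop on it. The brightest probe set read 256.2, 240.5 and 303.7 in KO 1, 2 and 3, against 159.6, 227.2 and 228.8 in WT 1, 2 and 3. All KO mice lay above all WT mice, with WT 1 well below the rest. The difference was 0.36 (SE 0.14, 95% interval 0.05 to 0.68; limma adjusted p = 0.437), and it was 0.27 without KO 3 and 0.21 without WT 1. The second probe set differed by 0.34, or by 0.21 without WT 1 and 0.52 without WT 3, at 114 ± 19 in KO and 87.6 ± 23 in WT (SD, n = 3), with overlapping groups. The dimmest was not tested and read 2.1 to 11.5 in KO and 1.8 to 4.1 in WT.

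Further members encode brakes on growth. Ddit4 (REDD1) holds back mTORC1, Errfi1 (MIG6) holds back the EGF receptor, and Cdkn1a (p21) holds back cyclin-dependent kinases. Ddit4 read 300, 420.5 and 373 in KO 1, 2 and 3, against 279.9, 315.4 and 334.8 in WT 1, 2 and 3, a difference of 0.21 (SE 0.12, limma adjusted p = 0.658). It was 0.34 without KO 1, 0.11 without KO 2 and 0.19 without KO 3. KO 2 and KO 3 were again the highest mice and KO 1 lay among the WT mice. Errfi1 read 268.6, 330.6 and 358.3 in KO, against 357.1, 329.9 and 291.5 in WT, and the groups overlapped throughout. Its difference was -0.03 (95% interval -0.29 to 0.23), and its second probe set gave 0.03. Cdkn1a read 72.1, 133.5 and 158.9 in KO, against 71.3, 109.8 and 103.4 in WT, a difference of 0.27 with an interval of -0.24 to 0.78. That value was 0.56 without KO 1, 0.18 without KO 2, 0.068 without KO 3 and 0.11 without WT 1. A second Cdkn1a probe set was below the filter and read 27, 51 and 39.8 in KO, against 5.8, 7.1 and 12.1 in WT. Every KO mouse was above every WT mouse there, with a difference of 1.17 on the log2 scale, and with no filter its limma adjusted p was 0.186. Both groups were dim in it, so the size depends on the offset.

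The metallothioneins were bright, and neither passed the test. Mt1 read 4207, 4034 and 4639 in KO 1, 2 and 3, against 4083, 4406 and 4445 in WT 1, 2 and 3, and the groups overlapped throughout. The difference was -0.01 (SE 0.07), and the 95% interval of -0.16 to 0.15 corresponds to a KO signal between 0.893 and 1.11 times that of WT. This probe set is one whose probes Affymetrix marks as shared between transcripts, and a second Mt1 probe set was too dim to test (14.7 to 41.8 in KO and 8.6 to 33.0 in WT). Mt2 read 1649, 2034 and 2094 in KO, against 1684, 1677 and 1837 in WT. KO 2 and KO 3 were the highest and KO 1 the lowest of the 6 mice, and the difference was 0.14 (95% interval -0.05 to 0.34; limma adjusted p = 0.695). It was 0.25 without KO 1 and 0.081 without KO 3. The brain form Mt3 differed by -0.07, with a mean of 2232 ± 210 in KO against 2350 ± 207 in WT (SD, n = 3).

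**Figure D2:**
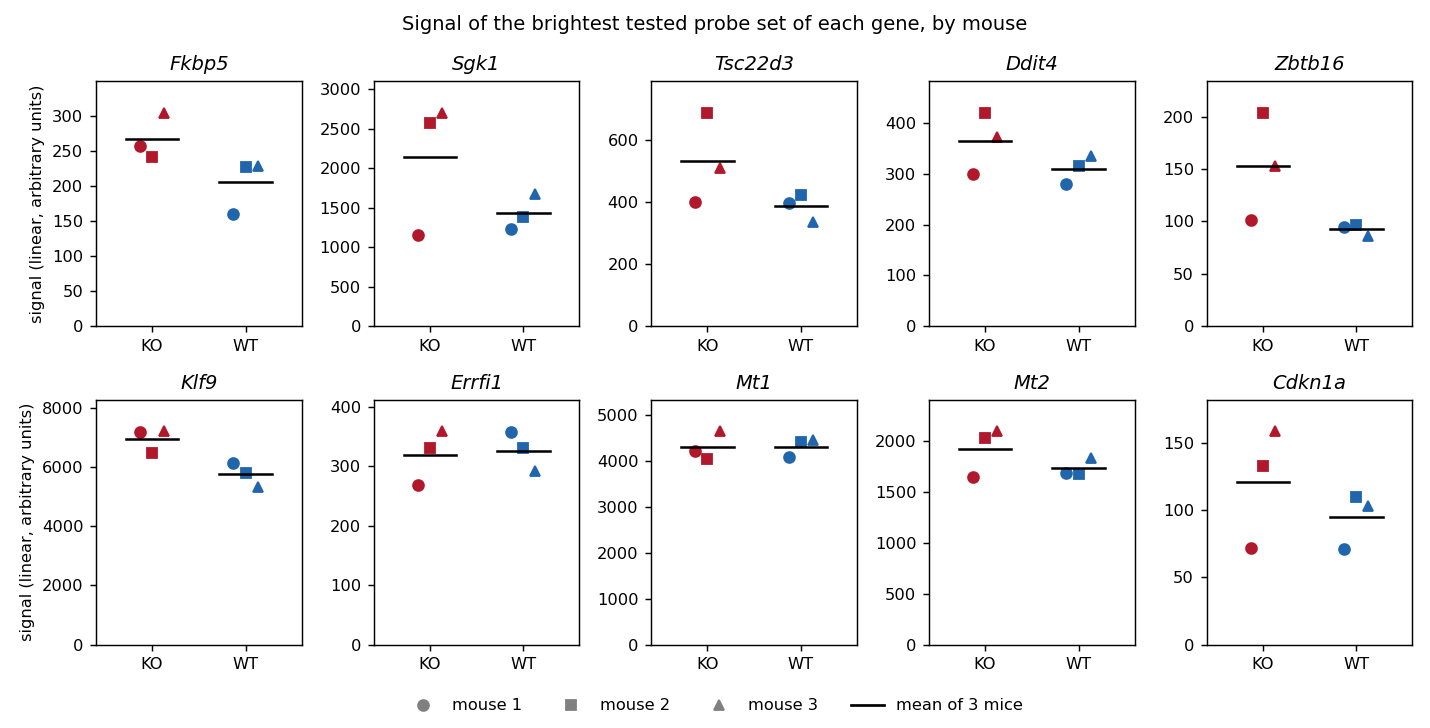
Signal (vertical axes, linear arbitrary units, each from 0) of the brightest tested probe set of each gene in the 3 KO mice (left) and 3 WT mice (right), with the mean as a bar. In Sgk1 the KO mice span 1155 to 2697, and in Mt1 both groups stay between 4034 and 4639.

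Several members were high in the same KO mice. By the brightest probe set of each gene, KO 1 was the lowest KO mouse for 7 of the 10 genes and the highest for 0, and KO 3 was the highest for 7. Relative to the WT mean, the median over the 10 genes was -0.04 in KO 1, 0.33 in KO 2 and 0.36 in KO 3, against -0.06, 0.03 and 0.06 in WT 1, 2 and 3. In Klf9, Fkbp5 and Mt1 the lowest KO mouse was KO 2 instead, at 0.17, 0.23 and -0.09 relative to the WT mean. KO 1 stood above the WT mean by 0.32 in Klf9 and in Fkbp5, by 0.12 in Zbtb16 and by 0.06 in Tsc22d3. The highest KO mouse was KO 2 for Tsc22d3, Ddit4 and Zbtb16. KO 3, the highest for the rest, is the mouse whose label names cytoplasmic RNA. The median of 23 other glucocorticoid-responsive genes, none of them among the 10, was -0.08 in KO 1, 0.24 in KO 2 and 0.33 in KO 3, against -0.03, 0.08 and -0.02 in WT 1, 2 and 3. That list too was chosen with earlier results of these data known. The ratio of 3' to 5' signal of the GAPDH control was -0.44, -0.46 and -0.45 in KO 1, 2 and 3 on the log2 scale, against -0.44, -0.43 and -0.49 in WT, so KO 1 did not stand apart in it. The summed signal of 7 endothelial markers ran the other way, with 978 in KO 1, 814 in KO 2 and 681 in KO 3, against 967, 974 and 840 in WT 1, 2 and 3. Microglia markers (3566, 3224 and 3102 in KO 1, 2 and 3) and striatal neuron markers (25490, 24348 and 22987) fell in the same order. Among the KO mice, the astrocyte, oligodendrocyte and cortical neuron sums were highest in KO 3, and the choroid plexus sum was highest in KO 1 and lowest in KO 2. The part of these cells in the result was not tested. In bulk tissue, fewer cells of a type and less RNA per cell cannot be told apart.

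**Figure D3:**
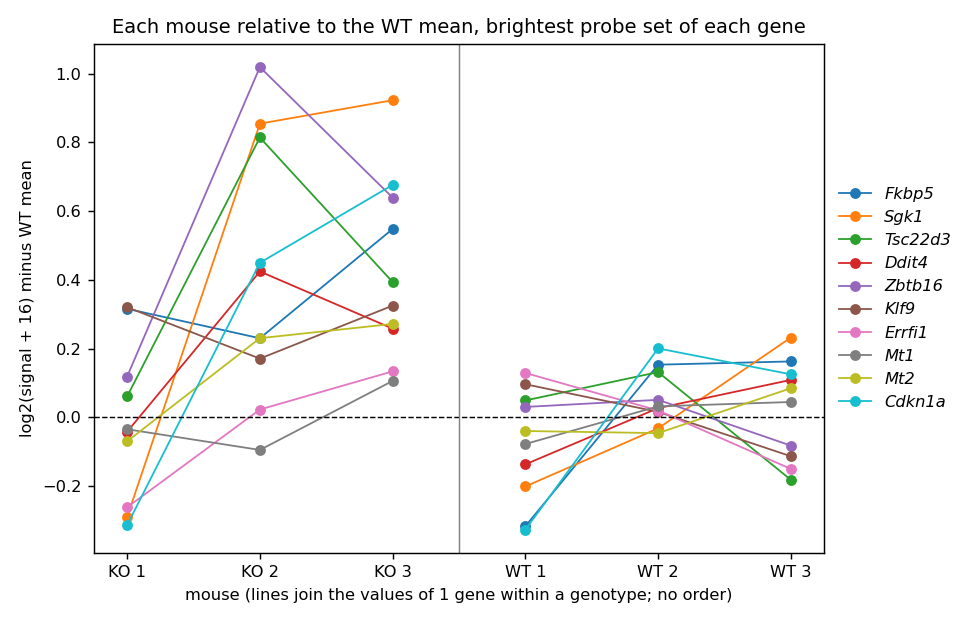
log2 signal of each mouse minus the WT mean (vertical axis), for the brightest tested probe set of each of the 10 genes; lines join the values of 1 gene within a genotype. KO 1 lies below 0 for 6 genes, whereas KO 2 and KO 3 reach 1.02 and 0.92.

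Around these members, the genes that receive and handle the hormone showed no call. Of 16 such genes 13 were tested, 7 higher and 6 lower in KO, with a median of 0.05. Nr3c1 averaged 499 ± 58 in KO against 499 ± 23 in WT, and Nr3c2 averaged 174 ± 8.0 in KO against 185 ± 40 in WT (SD, n = 3). The differences were -0.0053 and -0.06, and both changed sign when single mice were left out. The smallest p were those of Crhr1, the receptor for corticotropin-releasing hormone (-0.53, limma adjusted p = 0.384), and Stip1, a chaperone linker of the receptor complex (0.20, adjusted p = 0.522). In both the groups did not overlap.

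Of 28 other glucocorticoid-responsive genes 23 were tested, 14 higher and 9 lower in KO, and their median difference was 0.11, or 0.09 to 0.26 with 1 mouse left out, the highest being without KO 1. One was called by its brightest probe set. Pdk4, the kinase that shuts off pyruvate dehydrogenase and a known PGC-1alpha target in muscle, fell to 67.2, 71.9 and 98.8 in KO 1, 2 and 3, against 140.6, 184.9 and 148.2 in WT 1, 2 and 3. The difference was -0.87 (SE 0.16, limma adjusted p = 0.0391), and all KO mice were below all WT mice. The call ended without any 1 mouse except KO 3 (adjusted p up to 0.167), with no filter (0.128) and without the intensity trend (0.220); the lowest adjusted p among the alternatives was 0.0266. Sdc4, a heparan sulphate proteoglycan, rose in another probe set to 332.3, 370.5 and 390.2 in KO, against 139.9, 130 and 134.5 in WT (1.33, limma adjusted p = 8.14e-05), and this held without any 1 mouse. The Sdc4 probe set that was brightest by mean log2 signal, with means of 227 in KO and 237 in WT, gave -0.06 and did not pass.

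Some uncalled genes of this list are given because of their values. Plin4, a lipid droplet coat protein, read 55.5, 145.9 and 160.9 in KO 1, 2 and 3, against 67.2, 27.2 and 27.7 in WT 1, 2 and 3. KO 2 and KO 3 were the highest, as for Sgk1, and KO 1 lay within the WT range; the difference was 1.23 (SE 0.33, adjusted p = 0.200). Without KO 1 Plin4 was called (1.65, adjusted p = 0.0312) and the highest value among the alternatives was 0.530. Hif3a, a hypoxia-inducible factor subunit, read 105.3, 87.6 and 101.9 in KO, against 35.3, 52.9 and 65.6 in WT (0.79, adjusted p = 0.135). The phosphatase gene Dusp1 differed by 0.33 and Mertk, a phagocytic receptor, by 0.32, also without overlap. The clock gene Per1 went the other way at 213.3, 199.3 and 189.1 in KO, against 241.2, 245.3 and 263.2 in WT (-0.30, adjusted p = 0.361).

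**Figure D4:**
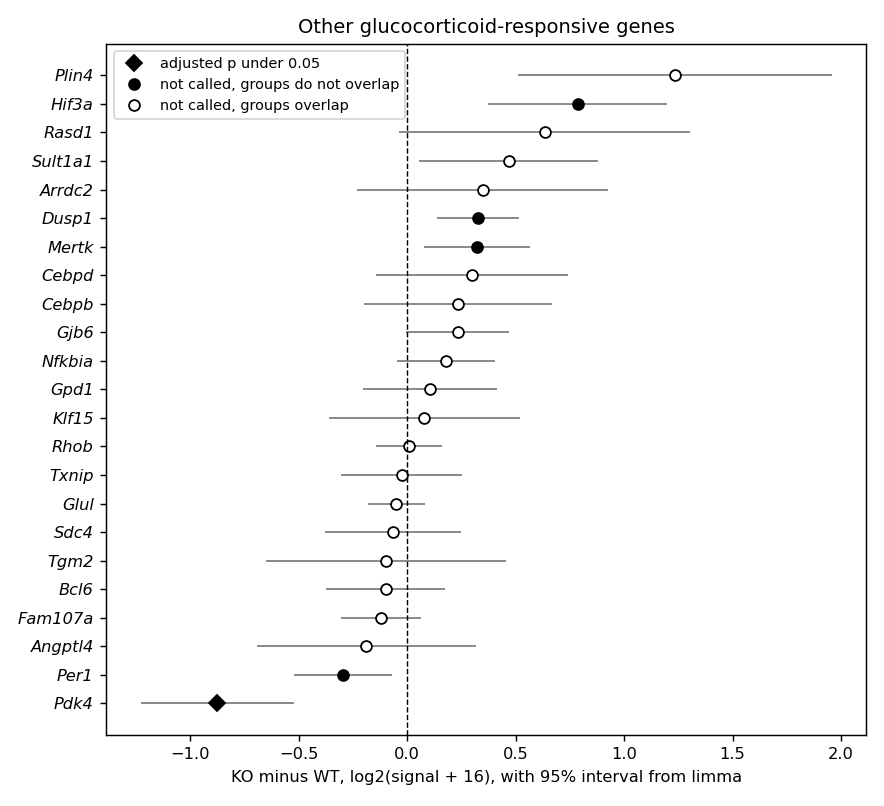
KO minus WT difference (horizontal axis, log2 scale, 95% intervals from limma) of the 23 tested genes of the list of other glucocorticoid-responsive genes, each by its brightest probe set. Pdk4 at -0.87 is the called gene, and Plin4 at 1.23 has the widest interval.

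Zinc, copper and iron handling showed no call either. Of 24 genes 20 were tested, 9 higher and 11 lower, with a median of -0.05. The smallest p were those of Mtf1, the metal-sensing factor of the metallothionein genes, with a mean of 188 ± 30 in KO against 137 ± 23 in WT (SD, n = 3; a difference of 0.41, limma adjusted p = 0.380), and Tfrc, the transferrin receptor (-0.23, adjusted p = 0.413). Neither gene had overlapping groups. Among p53 and stress genes around Cdkn1a and Ddit4, 12 of 17 were tested, 6 higher and 6 lower with a median of 0.02 and 0 called. Sesn1, a p53 and FOXO target, gave 0.26 and Phlda3 -0.27. Among targets and partners of the member proteins, 19 of 21 were tested, 11 higher and 8 lower with a median of 0.05 and 0 called. Ddit4l, the relative of Ddit4, gave 0.42 and Rheb, the activator of mTORC1, 0.21.

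Several members have called genes near them on the chromosome. Among the 10 nearest tested genes on each side, Errfi1 on chromosome 4 had 1 probe set of Vamp3 (-1.36, limma adjusted p = 3.12e-04) and Slc2a5 (-1.68, adjusted p = 0.0220), 2 of 41 probe sets or 4.88%, where 0.470% of all probe sets were called. Slc2a5 averaged 14 in KO and 76 in WT. Its KO mean was below the filter signal of 26.8, so it was tested only because of the WT mice. Fkbp5 and Cdkn1a on chromosome 17 shared 1 probe set of Mapk14, at 58 in KO and 150 in WT (-1.25, limma adjusted p = 0.0432). It was 1 of 37 probe sets near Fkbp5 (2.70%) and 1 of 47 near Cdkn1a (2.13%). Mt1 and Mt2 on chromosome 8 shared Pllp, a myelin protein (-0.58, adjusted p = 0.0330), as 1 of 35 probe sets (2.86%) and 1 of 33 (3.03%). The probe sets of a gene did not match here. The other tested Vamp3 probe sets gave 0.03 (387 in KO and 377 in WT), -0.09, -0.27 and -0.66, and the other Mapk14 probe sets gave -0.04 (509 in KO and 526 in WT), 0.08, 0.18 and 0.28, all uncalled. The Vamp3 call held without any 1 mouse. Leaving out KO 1, KO 3, WT 2 or WT 3 ended the Slc2a5 call (up to 0.112), that of Mapk14 without any 1 mouse but KO 3 (up to 0.174), and that of Pllp without any but WT 3 (up to 0.125). All of the Slc2a5, Mapk14 and Pllp calls also ended with no filter and with no intensity trend (adjusted p up to 0.171, 0.278 and 0.236), those of Slc2a5 and Mapk14 with an offset of 1, and that of Pllp with median centring. Sgk1, Tsc22d3, Ddit4, Zbtb16 and Klf9 had 0 called genes among their 20 neighbours.

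Markers of other cells and of neuronal activity were read beside these values. Choroid plexus markers were higher in KO, with a summed signal over 6 of 7 genes of 2924 to 3920 in KO and 1515 to 2464 in WT, nearly all of it from Ttr (0.91, limma adjusted p = 0.0347). Leaving out KO 1, KO 3, WT 1 or WT 2 ended this call (up to 0.140), as did no filter (0.157) and no intensity trend (0.303). Other Ttr probe sets, read in the same mice, were also called with all 6 mice and without overlap. Their differences were 0.87, 0.84 and 0.83 (limma adjusted p = 0.0220, 0.0357 and 0.0482). The defining choroid markers Folr1, Kl, Kcne2 and Otx2 were at 1.7 to 34.4 in KO and 2.8 to 33.1 in WT. KO 1 had the highest Ttr, 3660, and was the lowest in Sgk1 and Mt2. KO 3 stood above KO 2 in Ttr, 3062 against 2597, and also in Sgk1 and Mt2. Any link of Ttr to the members' values was not tested. The medians of the other marker lists were 0.02 for 8 astrocyte, -0.18 for 7 oligodendrocyte, -0.20 for 7 endothelial, 0.03 for 7 microglia, 0.08 for 6 striatal neuron, -0.07 for 6 cortical neuron and 0.01 for 9 immediate early genes tested, with 0 called in each. With 1 mouse left out the astrocyte, endothelial, microglia, cortical neuron and immediate early medians changed sign. Those with the smallest p were S100b (-0.37) and Gja1 (0.14), Mag (-0.43) and Ugt8a (-0.32), Slco1a4 (-0.22) and Cldn5 (-0.29), Aif1 (-0.64) and P2ry12 (-0.24), Drd2 (0.22) and Penk (0.10), Fezf2 (-0.57) and Tbr1 (0.30), and Arc (-0.26) and Fosb (0.37), in that order of lists. Of the microglia markers 4 were higher in KO, Cx3cr1 (0.15), Tyrobp (0.15), Csf1r (0.07) and Itgam (0.03), and 3 were lower. Astrocyte markers were 5 higher and 3 lower. In the oligodendrocyte and endothelial lists 6 were lower and 1 was higher, Cldn11 (0.25) and Flt1 (0.18). Striatal neuron markers were 5 higher and 1 lower, cortical neuron markers 3 and 3, and immediate early genes 5 and 4.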

How the data were processed

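Per the labels, RNA from the striatum of 6 mice was extracted with Qiagen RNeasy and measured on 1 array per mouse. The authors deposited a linear intensity per probe set, and the submitters' processing notes name MAS5; the sources used here give neither its version and settings nor a genome build. All 6 arrays had a trimmed mean of 150.001 (2% cut at each end), so a change in total RNA cannot be seen. Genotype and replicate number came from the sample titles.

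Of 45101 probe sets 64 were controls and were left out. The platform annotation gave 34958 probe sets exactly 1 symbol and 932 several, and 9211 were not listed; 34754 matched a gene of the GRCm38.p6 RefSeq table, which was used for current names, neighbours and promoter sequences. Signals were transformed to log2(signal + 16), a scale on which the change of dim probe sets is understated. The dimmest 40% of probe sets, up to a mean signal of 26.8, were left out. KO and WT were compared with limma 3.58.1 in R 4.3.3 (lmFit, eBayes with intensity trend), adjusted by Benjamini-Hochberg over 27022 probe sets. A two-sided exact permutation test of 3 mice against 3 cannot go below 0.1 and adds nothing to the limma result. Each gene entered a list by its brightest tested probe set, and lists were described by counts and medians without a test. The procedure was also run on simulated data with known changes, drawn independently for each probe set, as a check of the code. That run is not used here to judge how often differences of the members' size would be called.

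Genes named are all probe sets of the members, the brightest of Ppargc1a, the called genes of each list or else the 2 with the smallest p, called genes among the 10 nearest tested genes on each side of a member, and the 5 genes most like the member probe set with the smallest p. Plin4, Hif3a, Dusp1, Mertk and Per1 were chosen after their values were seen, and Sdc4, Nr3c1, Nr3c2 and Mt3 are given as further members of their lists. The members and lists were chosen with earlier results of these data known. The labels name no pairing of the mice by replicate number. Deviations of same-numbered mice correlated at -0.009, -0.035 and 0.017, and those of different-numbered mice at -0.041 to 0.049. With 3 mice per group these values cannot settle whether mice were paired. Alternatives were quantile normalization, median centring, an offset of 1 or 64, no filter or the 60th percentile, no intensity trend, the replicate block, averaging the probe sets of each gene for the lists, and leaving out each mouse.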

Additional observations from a re-analysis of the deposited data

How the results depend on the processing

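Over all probe sets 48 were called higher and 79 lower in KO, so higher calls made up 37.8%. Median centring of every array raised that share to 50.9%. No filter gave 17 higher and 35 lower, and no intensity trend 9 and 16. Leaving out 1 mouse gave 21 to 45 higher and 40 to 65 lower. Of the 10 genes, 0 probe sets were called under the deposited scaling, 1 after quantile normalization (Klf9) and 0 to 2 with 1 mouse left out, the 2 being Sgk1 and Tsc22d3 without KO 1. The replicate block gave 36 higher and 64 lower and called 0 of the 10 genes; the Pdk4 adjusted p was then 0.0632. Differences near 0 changed sign. Mt1 gave 0.0144 after quantile normalization, 0.0365 with median centring and -0.0644 to 0.0359 with 1 mouse left out. Errfi1 gave 0.00934 with median centring, and with 1 mouse left out -0.119 to 0.0786 in its brighter and -0.0560 to 0.120 in its dimmer probe set. The Klf9 probe set near 0 ran from -0.118 to 0.102, Nr3c1 from -0.0836 to 0.0807 (0.0387 with median centring), Nr3c2 from -0.190 to 0.0943 and Tbr1 from -0.0835 to 0.493. The median of receptor and hormone handling genes was 0.0975 with median centring, -0.0480 with the mean of probe sets and -0.0131 to 0.0610 with 1 mouse left out. With 1 mouse left out, medians ran from 0.158 to 0.637 for choroid plexus markers, -0.0676 to 0.125 for microglia markers (-0.0422 with the mean of probe sets) -0.382 to 0.110 for cortical neuron, -0.284 to 0.0067 for endothelial, -0.0437 to 0.0511 for astrocyte and 0.0090 to 0.132 for striatal neuron markers, 0.0090 to 0.0656 for p53 and stress genes, -0.0770 to -0.0147 for metal handling, 0.0909 to 0.260 for other glucocorticoid-responsive genes, and -0.0163 to 0.130 for immediate early genes. The cause of these shifts was not tested. The 3 arrays per group limit the precision of every value.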
